A study of Mus musculus with 8 samples.

Results

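A set of 10 genes for cell-to-cell adhesion in gut epithelium was examined in RNA from colon intestinal epithelial cells, namely the desmosome genes Dsg2, Dsc2, Jup, Pkp2, Pkp3 and Dsp and the cadherin and catenin genes Cdh1, Cdh17, Ctnna1 and Ctnnd1. They were taken by name from the deposited table, which lists 55487 genes, and all 10 were found and passed the filter on low values that left 12760 genes for testing. The 8 libraries came from the colon of C57BL/6J mice, 4 from wild type animals (WT) and 4 from animals whose genotype is given as PIM1+/-. Neither group carries a label for treatment, age or time point, and no source used here describes how the Pim1 allele was altered. Values are TPM, a length-corrected share of all transcripts in a library. TPM keeps no count of reads, which leaves the depth of these libraries unknown. Means are given ± SD over n = 4 libraries. Log2 fold changes are PIM1+/- over WT on the log2(TPM + 1) scale, ± SE, from a limma model fitted to all tested genes, with p-values adjusted over all of them. Whether each library stands for its own animal is not labelled, and the p-values therefore describe the spread among these 8 libraries, which may be technical.

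Epithelial cells hold together through junctions built on cadherins, membrane proteins whose outer domains bind those of the neighbouring cell in the presence of calcium. In adherens junctions, E-cadherin is bound inside the cell by catenins that connect it to actin. In desmosomes, desmogleins and desmocollins are bound by plakoglobin and the plakophilins, and desmoplakin ties this plaque to keratin filaments, which gives the sheet its mechanical strength. The gut epithelium of the mouse uses a small part of these gene families, and it also carries cadherin 17, an intestinal cadherin on the lateral membrane that has no catenin-binding tail.

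The labelled cell type matched the transcripts. Epcam, an epithelial adhesion molecule gene, measured 1226 ± 47.1 TPM in WT and 1284 ± 86.8 TPM in PIM1+/- libraries, and the keratin gene Krt8 measured 4047 ± 167 and 4814.5 ± 278 TPM. All 7 epithelial identity markers were tested, and 5 of them rose, with none lower (median log2 fold change 0.21, beside -0.01 over all tested genes). Pim1 itself measured 7.80 ± 1.46 TPM in WT and 6.67 ± 1.12 TPM in PIM1+/- libraries (log2 fold change -0.19 ± 0.15, limma adjusted p = 0.411), so its level did not separate the groups. Markers of other cells moved with genotype. The summed TPM of 9 T and NK cell markers ran from 10.2 to 23.3 in WT and from 40.5 to 101 in PIM1+/- libraries, with 7 of 9 higher. That of 10 myeloid and mast cell markers ran from 3.10 to 5.95 and from 15.2 to 17.96, with 2 of 4 tested genes higher. Mitochondrial transcripts and their nuclear copies summed to 268777 to 301369 TPM in WT and 206870 to 232748 TPM in PIM1+/- libraries. The summed TPM of 8 posterior Hox genes, which mark position along the bowel, ran from 148 to 195 in WT and from 40.8 to 93.9 in PIM1+/- libraries, with 3 of 5 tested genes lower. The part of these differences in the results below was not tested. In bulk RNA, fewer cells of a type and less RNA per cell cannot be told apart.

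Of the 10 genes, 4 rose in PIM1+/- libraries and 0 fell (limma). Dsc2, Pkp3, Cdh17 and Ctnnd1 were higher by 13.6% to 39.1% of the WT mean, and Dsg2, Jup, Pkp2, Dsp, Cdh1 and Ctnna1 did not pass the test. At an unadjusted p under 0.05, 5 were higher and 1 lower. Of all 12760 tested genes, 17.5% were called, 8.93% higher and 8.54% lower. Among the 5088 tested genes with a mean of at least 20 TPM, a level all 10 exceed and that was chosen after their values were seen, 14.1% were called higher and 9.04% lower. The PIM1+/- libraries lay wholly above the WT libraries for 5 of the 10 genes and wholly below them for 0, against 11.9% and 11.6% of all tested genes (23.5% in either direction). Among those with a mean of at least 20 TPM, 18.8% lay wholly above. The median log2 fold change of the 10 was 0.13.

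**Figure D1:**
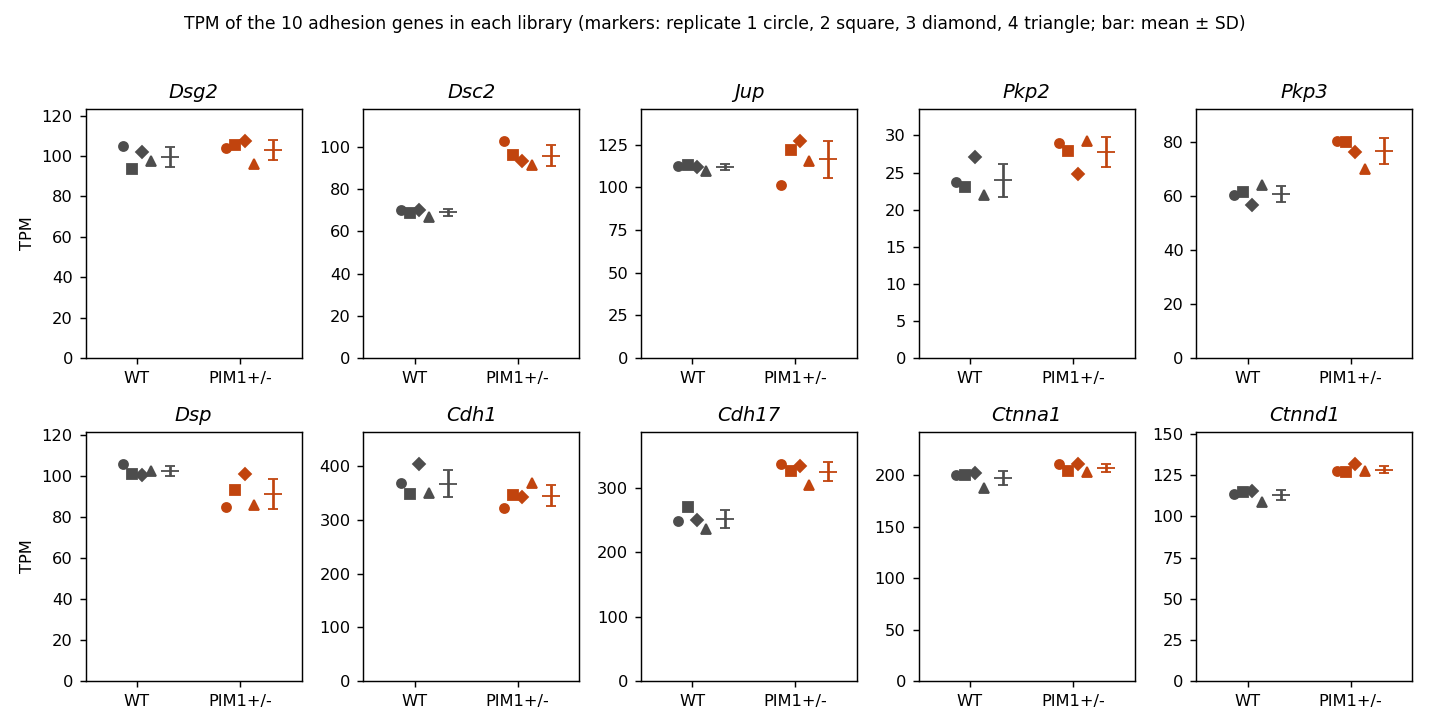
TPM of each adhesion gene (vertical axis, from 0) in the 4 WT and 4 PIM1+/- libraries, 1 point per library, with the mean and SD beside them. The groups do not overlap for Dsc2, Pkp3, Cdh17, Ctnna1 and Ctnnd1, and for Ctnna1 the distance between them is smaller than for the other 4.

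Of the desmosomal cadherin genes, Dsc2 rose and Dsg2 did not pass the test. Dsc2 (ENSMUSG00000024331), the desmocollin of simple epithelia, stood at 69.92, 68.84, 69.87 and 66.87 TPM in the WT libraries, in the order of their replicate numbers here and below. The PIM1+/- libraries gave 102.51, 96.07, 93.09 and 91.45 TPM. Every PIM1+/- library was above every WT library, and the WT values spread little (coefficient of variation 2.07%). On the log2 scale Dsc2 rose by 0.47 ± 0.05, with a 95% interval of 0.35 to 0.58 (limma adjusted p = 0.000539). Dsg2 (ENSMUSG00000044393), the desmoglein it pairs with, measured 105.11, 93.71, 102.03 and 97.38 TPM in WT and 103.74, 105.6, 107.23 and 96.1 TPM in PIM1+/- libraries. Its groups overlapped along most of their range (0.05 ± 0.06, 95% interval -0.08 to 0.18, adjusted p = 0.575). Within a library, the ratio of Dsc2 to Dsg2 TPM was 0.693 ± 0.0295 in WT and 0.929 ± 0.0519 in PIM1+/- libraries, with no overlap. Dsc2 made up 40.9% ± 1.02 of the TPM of the pair in WT and 48.1% ± 1.40 in PIM1+/- libraries.

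Both genes lie in the mouse cluster of desmosomal cadherins on chromosome 18 of GRCm38, where 9 protein-coding desmocollin and desmoglein genes span 643592 bases. Dsc2 (20030633 to 20059554, minus strand) is the second gene of the cluster and Dsg2 (20558074 to 20604521, plus strand) the last. The other 7, whose products are known from stratified epithelia such as skin, were at or near 0. Dsc1, Dsc3, Dsg1a, Dsg1b, Dsg1c and Dsg4 were at most 0.16 TPM in any library, with Dsg1a and Dsg1b listed at 0 in all 8. Dsg3 was the highest of them, at 0.1, 0.05, 0.1 and 0.07 TPM in WT and 0.58, 0.53, 0.24 and 0.16 TPM in PIM1+/- libraries, too low to be tested. Among markers of stratified squamous epithelium, summed TPM ran from 2.64 to 5.83 in WT and from 3.09 to 5.48 in PIM1+/- libraries, and 2 of the 8 markers were listed at 0 in all libraries.

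Among the desmosome plaque genes of the examined set, Pkp3 rose, and Pkp2, Jup and Dsp did not pass the test. The plakophilin genes Pkp1 and Pkp4, which are outside that set, also rose, Pkp1 close to the threshold, and are described below. Pkp3 (ENSMUSG00000054065, chromosome 7, 141078218 to 141090510), the plakophilin gene with the highest TPM in these libraries, measured 60.37, 61.5, 56.74 and 64.08 TPM in WT and 80.07, 79.92, 76.27 and 69.7 TPM in PIM1+/- libraries. Its groups did not overlap (0.33 ± 0.06, adjusted p = 0.00824). Pkp2 (ENSMUSG00000041957, chromosome 16, 16213318 to 16272712), a plakophilin gene also known from the heart, measured 23.75, 23.03, 27.15 and 22.02 TPM in WT and 29.02, 27.86, 24.84 and 29.2 TPM in PIM1+/- libraries. WT replicate 3 lay above PIM1+/- replicate 3, and the change did not pass (0.20 ± 0.08, 95% interval 0.02 to 0.39, adjusted p = 0.121). The ratio of Pkp2 to Pkp3 was 0.398 ± 0.0578 in WT and 0.364 ± 0.0397 in PIM1+/- libraries, with overlapping ranges. Together, the 4 plakophilin genes summed to 119 ± 1.43 TPM in WT and 147 ± 4.02 TPM in PIM1+/- libraries, and Pkp3 supplied 50.9% ± 2.77 and 52.1% ± 2.13 of that sum.

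Jup (ENSMUSG00000001552), the plakoglobin gene, whose product serves both desmosomes and adherens junctions, measured 112.61, 113.3, 111.71 and 109.77 TPM in WT and 101.65, 121.79, 126.91 and 115.18 TPM in PIM1+/- libraries. The PIM1+/- libraries lay on both sides of the WT values, and they spread more widely (coefficients of variation 1.37% in WT and 9.39% in PIM1+/-). The fold change was 0.05 ± 0.07 (adjusted p = 0.643). Dsp (ENSMUSG00000054889), which encodes desmoplakin, measured 105.9, 101.12, 100.57 and 102.43 TPM in WT and 84.88, 93.18, 100.86 and 85.96 TPM in PIM1+/- libraries. In all, 3 of the PIM1+/- libraries were below all WT libraries, and replicate 3 fell inside the WT range. The log2 difference was -0.17 ± 0.06 (95% interval -0.31 to -0.03) and did not pass the test (adjusted p = 0.0917). Of the 8 limma fits that each left out 1 library, it passed in 1, without PIM1+/- replicate 3 (-0.22, adjusted p = 0.0393). An antisense gene of Dsg2, Gm16090, and an unclassified transcript opposite Dsp, Gm10129, share 330 and 499 exonic bases with them at mean levels of at most 0.598 and 0.213 TPM, and reads of such partners cannot be told apart unless strand was used, which is not stated. Jup shares stretches of at least 100 bases at 95% identity with 183 other genes. The longest was 150 bases at 95.3% identity, in a gene with a mean of 0 TPM. The ratio of Jup to Dsp was 1.09 ± 0.0283 in WT and 1.28 ± 0.0620 in PIM1+/- libraries, with no overlap.

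Promoter sequence is shown for Jup, Dsp and Ctnnd1, the only genes of the 10 for which a window was matched. Windows of the other genes of the 10, Cdh17 and Pkp3 among them, were not searched. Each run is the 250 bases before an annotated RefSeq transcription start on GRCm38.p6, 5′ to 3′ on the gene's strand, and capitals mark matches to CCNCNCCC, a GC-box letter pattern of the kind that KLF and SP factors bind, on either strand.
Jup, chr11:100397791-100398040, minus strand: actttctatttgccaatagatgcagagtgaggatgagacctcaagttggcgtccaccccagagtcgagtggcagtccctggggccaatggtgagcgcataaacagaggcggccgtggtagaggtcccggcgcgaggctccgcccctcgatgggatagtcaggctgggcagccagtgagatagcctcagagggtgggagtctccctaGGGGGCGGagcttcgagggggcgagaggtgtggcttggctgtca
Dsp, chr13:38151044-38151293, plus strand: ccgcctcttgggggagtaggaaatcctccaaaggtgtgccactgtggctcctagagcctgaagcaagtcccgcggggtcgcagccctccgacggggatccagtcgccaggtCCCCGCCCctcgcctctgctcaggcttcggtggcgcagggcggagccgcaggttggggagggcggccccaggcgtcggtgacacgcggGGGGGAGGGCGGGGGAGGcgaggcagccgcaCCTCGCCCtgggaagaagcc
Ctnnd1, chr2:84658978-84659227, minus strand, the farther upstream of 2 starts: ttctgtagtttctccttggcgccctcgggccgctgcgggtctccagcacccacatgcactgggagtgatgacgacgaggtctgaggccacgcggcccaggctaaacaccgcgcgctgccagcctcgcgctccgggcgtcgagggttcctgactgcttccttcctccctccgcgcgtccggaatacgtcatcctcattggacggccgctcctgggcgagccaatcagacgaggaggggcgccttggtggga
The Dsp window held 5 such matches, some of them overlapping one another, the Jup window 1 and this Ctnnd1 window 0, and the window of the other Ctnnd1 start held 1. GC content was 62% for Jup, 72.4% for Dsp and 66.8% for this Ctnnd1 window, which lies upstream of the Ctnnd1 gene as GENCODE places it. The window of the other start, at that gene's 5′ end, had 40% and is not shown. The pattern was present in 45.9% of all 32851 windows of that length. No window of the 3 genes held TTTATNG (CDX factors, 9.81% of all windows), AACNNGTT (Grainyhead-like factors, 3.64%), CAGGTG (the E-box that Snail and ZEB factors bind, 17.2%) or TTCNNNGAA (the STAT site, 7.02%), searched on both strands. Such a search says only which letters stand in these windows.

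Of the 2 cadherin genes outside the desmosome, one rose and the other did not pass. Cdh17 (ENSMUSG00000028217, chromosome 4, 11758147 to 11817895) measured 249.1, 270.04, 250.35 and 235.91 TPM in WT and 337.43, 326.09, 334.41 and 304.37 TPM in PIM1+/- libraries. The groups were well apart (0.37 ± 0.06, 95% interval 0.25 to 0.50, adjusted p = 0.00289). Cdh1 (ENSMUSG00000000303, chromosome 8, 106603351 to 106670246), the E-cadherin gene, measured 368.29, 348.61, 403.62 and 349.3 TPM in WT and 321.59, 346.53, 342.91 and 369.12 TPM in PIM1+/- libraries. The 2 groups' ranges overlapped (-0.09 ± 0.06, 95% interval -0.23 to 0.05, adjusted p = 0.362). The ratio of Cdh17 to Cdh1 was 0.687 ± 0.0642 in WT and 0.948 ± 0.0936 in PIM1+/- libraries, and it was higher in each of the PIM1+/- libraries than in any WT library. In WT, Cdh1 exceeded Cdh17 in all 4 libraries without overlap of the ranges. In PIM1+/- libraries it did so in 3 of 4, and the ranges overlapped.

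The catenins changed little. Ctnnd1 (ENSMUSG00000034101, chromosome 2, 84600071 to 84650765), the delta catenin gene, whose product holds cadherins at the membrane, measured 113.41, 114.85, 115.37 and 108.87 TPM in WT and 127.49, 127.08, 131.74 and 127.53 TPM in PIM1+/- libraries. The groups did not overlap (0.18 ± 0.04, adjusted p = 0.0193), but the call was lost without WT replicate 1 (adjusted p = 0.0555), WT replicate 4 (0.0533) or PIM1+/- replicate 3 (0.0578). A predicted read-through gene, Gm28635, shares 4482 exonic bases with Ctnnd1 at full identity and was listed at 0 in both groups. Ctnna1 (ENSMUSG00000037815), the alpha catenin gene, whose product links the complex to actin, measured 200.03, 200.37, 202 and 188.03 TPM in WT and 211.04, 204.69, 211.04 and 203.15 TPM in PIM1+/- libraries. All PIM1+/- values were higher, by a margin smaller than the spread within WT, and the change did not pass (0.07 ± 0.04, adjusted p = 0.296). Ctnnb1, the beta catenin gene, whose product shares the E-cadherin site with plakoglobin, went from 393 ± 22.1 to 432 ± 9.73 TPM (0.14 ± 0.05, adjusted p = 0.0905).

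Whether partners changed unequally was tested on 8 log2 ratios of TPM + 1 of 2 genes within a library, which barely depend on how the library was scaled. The difference in log2 ratio was 0.46 for Cdh17 to Cdh1, 0.42 for Dsc2 to Dsg2, 0.27 for Ctnnd1 to Cdh1 and 0.22 for Jup to Dsp. For these 4 the groups did not overlap, which gives an exact permutation p of 0.0286 each (two-sided), the smallest that 4 against 4 libraries allow. Adjusted over the 8 ratios by Benjamini-Hochberg it was 0.0571, short of the threshold. With that smallest p, a single ratio without overlap could not have passed the adjustment. Dsc2, Cdh17 and Ctnnd1 also did not overlap between groups as single genes, beside 23.5% of all tested genes. How often ratios of other gene pairs do not overlap was not computed. The ratios of Ctnna1 to Cdh1 (0.16, exact permutation p = 0.0571), Dsg2 to Cdh1 (0.14, p = 0.143), Jup to Ctnnb1 (-0.09, p = 0.257) and Pkp2 to Pkp3 (-0.13, p = 0.40) had overlapping ranges. Without WT replicate 3 the last was -0.036, without PIM1+/- replicate 3 it was -0.076, and it was -0.19 without WT replicate 4 or PIM1+/- replicate 4. The ratio of Jup to Ctnnb1 was -0.030 without PIM1+/- replicate 1.

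**Figure D2:**
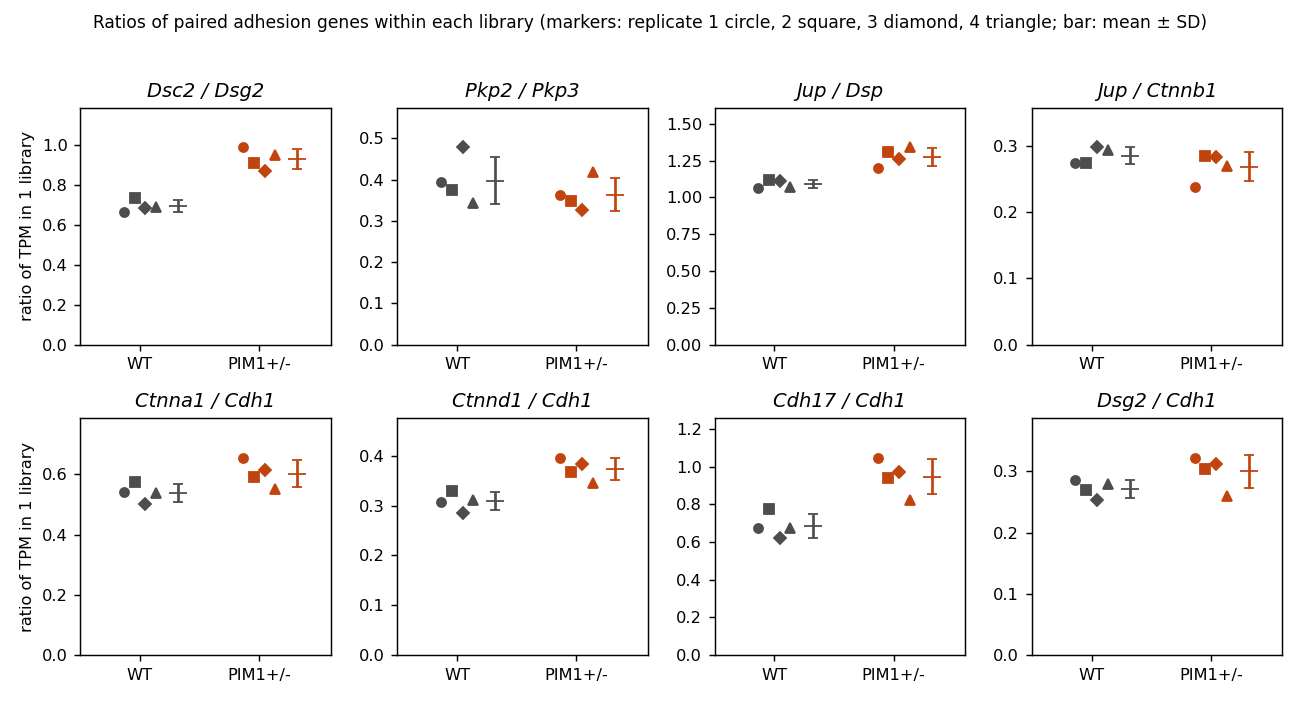
Ratio of TPM of 2 genes in each library (vertical axis, from 0) for 8 pairs, 1 point per library, with mean and SD. The PIM1+/- libraries lie above all WT libraries for Dsc2 to Dsg2, Jup to Dsp, Ctnnd1 to Cdh1 and Cdh17 to Cdh1, and the groups overlap for the other pairs.

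Levels per length ordered the genes similarly in both groups. In WT the order of mean TPM was Cdh1 (367), Cdh17 (251), Ctnna1 (198), Ctnnd1 (113), Jup (112), Dsp (103), Dsg2 (99.6), Dsc2 (68.9), Pkp3 (60.7) and Pkp2 (24.0). Ctnnd1 and Jup overlapped, as did Dsp and Dsg2, and every other pair of neighbours was apart in all 4 libraries. In PIM1+/- libraries the order was Cdh1 (345), Cdh17 (326), Ctnna1 (207), Ctnnd1 (128), Jup (116), Dsg2 (103), Dsc2 (95.8), Dsp (91.2), Pkp3 (76.5) and Pkp2 (27.7). There Dsc2 stood above Dsp in 3 of 4 libraries, while in WT it stood below it in all. The neighbours Cdh1 and Cdh17, Jup and Dsg2, Dsg2 and Dsc2, and Dsc2 and Dsp overlapped, and every other pair was apart. Each of the 10 genes except Pkp2 was above at least 86.5% of the tested genes in mean TPM, and Pkp2 was above 67.4%.

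Variation within a genotype was described by Pearson r of log2(TPM + 1) with the genotype means taken out. Ctnna1 and Ctnnd1 (0.87) and Jup and Dsp (0.82) varied together, while Pkp3 and Cdh1 varied oppositely (-0.87). Among the 4 genes that rose, r was 0.63 for Cdh17 with Ctnnd1, 0.54 for Dsc2 with Cdh17, 0.37 for Dsc2 with Pkp3, 0.32 for Pkp3 with Cdh17, 0.10 for Dsc2 with Ctnnd1 and -0.44 for Pkp3 with Ctnnd1. These are descriptions over 8 libraries that share the scaling of TPM. Among 9015 other genes, the closest by mean r, with the genotype difference included, to the 6 desmosome genes were Atp5d (0.50), Uqcr10 (0.49) and Cda (0.49). Their lowest r to a gene of that group was -0.32, -0.44 and -0.31. The closest to the 4 cadherin and catenin genes were Pkp1 (0.64), Eif2b5 (0.63) and Cdca7l (0.63), with a lowest r of -0.04, -0.27 and -0.14. Each thus had an r below 0 with at least 1 gene of its group, though for Pkp1 it was close to 0.

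Another 84 genes, the partner genes, were examined as lists. The lists held other junction genes, cadherin relatives, plakins and keratins, genes acting on cadherins, and regulators of adhesion genes. Of the 84, 59 were tested, 12 rose and 4 fell (20.3% and 6.78% of those tested, beside 8.93% and 8.54% of all tested genes). Their median was 0.03, beside -0.01 over all tested genes. Of these 16 calls, 5 held without each library in turn (Cdx2, Krt20, Mmp7, Nectin2 and Perp), and the number called depended on single libraries. It was 6, 9 and 5 when WT replicate 1, 3 or 4 was left out, and 8, 7 and 6 when PIM1+/- replicate 1, 2 or 3 was. Among 10 other desmosome genes, the 3 high enough to test all rose. Pkp4, a plakophilin relative found at junctions, went from 20.5 ± 1.67 to 24.9 ± 0.817 TPM (0.27 ± 0.07, adjusted p = 0.0274). Pkp1, better known from skin, went from 14.2 ± 1.73 to 17.5 ± 0.520 TPM (0.29 ± 0.09, adjusted p = 0.0498), close to the threshold. Perp, a membrane protein gene needed for desmosome assembly in stratified epithelium, went from 157 ± 1.72 to 179 ± 2.19 TPM (0.19 ± 0.04, adjusted p = 0.0122).

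Of 17 tested adherens junction genes besides the catenins above, counting Ctnnb1, 2 rose and 1 fell (median 0.11). Nectin2, an immunoglobulin-like adhesion receptor gene, went from 54.9 ± 2.67 to 69.5 ± 3.86 TPM (0.33 ± 0.06, adjusted p = 0.00605). Limd1, a LIM domain scaffold gene, rose by 0.26 on the log2 scale. Afdn, which encodes afadin, the actin-binding partner of nectins, went from 79.5 ± 4.78 to 69.5 ± 1.97 TPM (-0.19 ± 0.06, adjusted p = 0.0466). Of 7 tested genes among 17 other cadherin superfamily members limma called 0, with 2 at an unadjusted p under 0.05 (median -0.10). Of 9 plakins and simple keratins, the keratin genes Krt8, Krt18, Krt19 and Krt20 rose by 0.25, 0.39, 0.21 and 0.62, and the 5 plakin genes, which include Plec, did not pass (list median 0.21). Krt8, Krt18 and Krt19 are also counted among the 7 epithelial identity markers.

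Genes that act on cadherins were mostly short of the threshold. Of 11 proteases, kinases and trafficking genes 2 rose (median 0.02). Mmp7, a matrix protease gene whose product can cleave E-cadherin, went from 0.843 ± 0.348 to 2.44 ± 0.704 TPM (0.89 ± 0.19, adjusted p = 0.0131). Rab11a, which encodes a GTPase of recycling endosomes, rose by 0.33 with overlapping ranges. Of 12 tested regulators 1 rose and 3 fell (median -0.01). Cdx2, an intestinal homeobox gene whose product is known to activate Cdh17, measured 96.02, 104.93, 84.63 and 95.31 TPM in WT and 143.02, 154.76, 140.12 and 147.24 TPM in PIM1+/- libraries (0.62 ± 0.07, adjusted p = 0.000583). The groups were far apart. Its relative Cdx1 fell by 0.21 (adjusted p = 0.0296), the Grainyhead-like gene Grhl2, an activator of Cdh1 in other epithelia, fell by 0.32 (adjusted p = 0.0277), and the epithelial factor gene Elf3 fell by 0.20 (adjusted p = 0.0496).

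**Figure D3:**
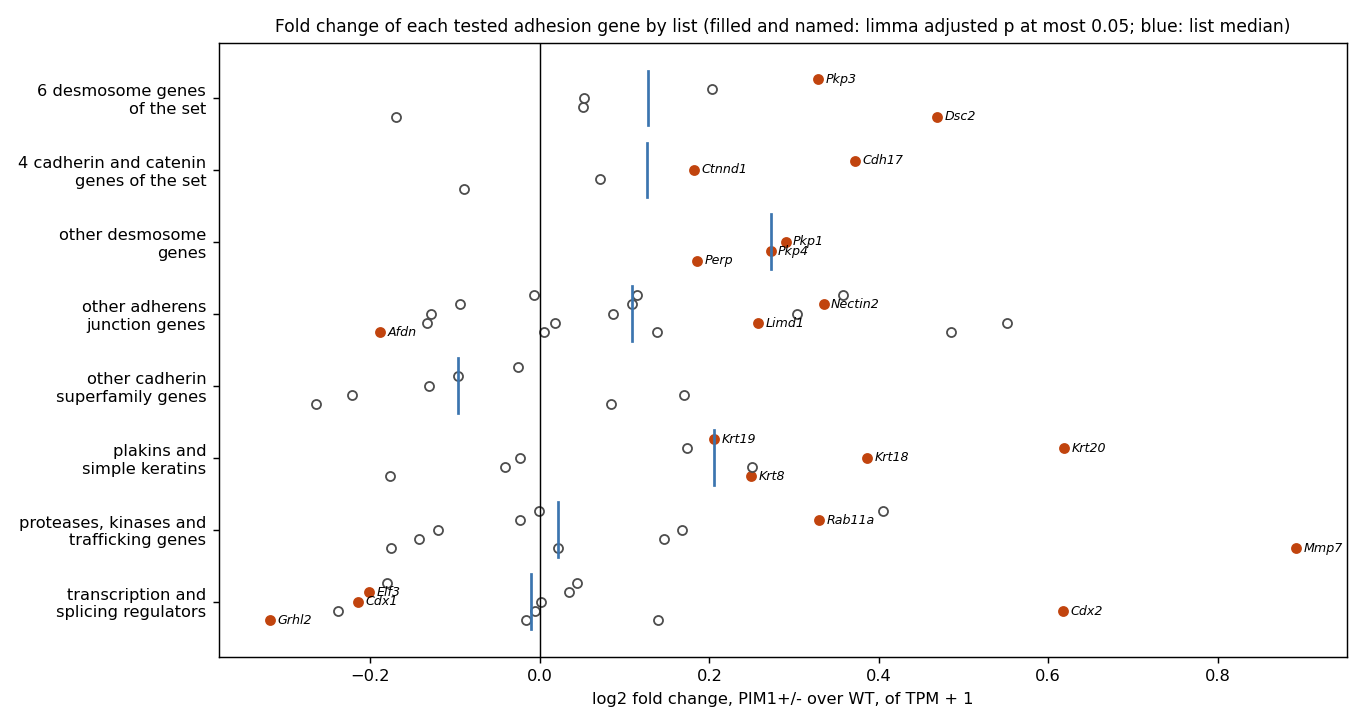
Log2 fold change of TPM + 1, PIM1+/- over WT (horizontal axis), of every tested gene in 8 lists (rows), with filled and named points for limma adjusted p of at most 0.05 and a blue line at the list median. Called genes lie on the higher side in the desmosome, keratin and protease rows, and 3 of the 4 called regulators lie on the lower side.

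How far each of the 10 genes was from 0 depended on the scaling of the libraries. Genes of low TPM, on which the pseudocount of 1 weighs more, did not always move with them. Without mitochondrial transcripts Mcpt1 went from 2.12 to 2.27 and Mmp7 from 0.89 to 0.93. At a pseudocount of 0.1 on the deposited values, Mmp7 stood at 1.45. Rescaling without mitochondrial transcripts shifted the median of all tested genes from -0.01 to -0.11, and scaling to the 7 epithelial identity markers, which themselves differed by 0.23 between groups, shifted it to -0.21. Over all tested genes, 1139 were called higher and 1090 lower on the deposited values, 926 and 1520 with upper quartile scaling, 731 and 2215 without mitochondrial transcripts, and 522 and 4417 on the epithelial markers. Dsc2 was called higher under both (0.36, adjusted p = 0.00132, and 0.25, adjusted p = 0.00622), and so was Cdh17 (0.26, adjusted p = 0.00713, and 0.15, adjusted p = 0.0361). Pkp3 was called under the first (0.22, adjusted p = 0.0405) and not under the second (0.11, adjusted p = 0.183). Ctnnd1 was called under neither and turned to -0.04 under the second. Dsp was called lower under both (-0.28, adjusted p = 0.0187, and -0.39, adjusted p = 0.00219). Relative to the epithelial markers, Dsg2 (-0.17, adjusted p = 0.0393), Cdh1 (-0.31, adjusted p = 0.0107) and Ctnna1 (-0.15, adjusted p = 0.0240) were also called lower. Of the other desmosome genes, Pkp1, Pkp4 and Perp were called under neither, and Perp turned to -0.04 under the second. Cdx2 and Krt20 were called under both.

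**Figure D4:**
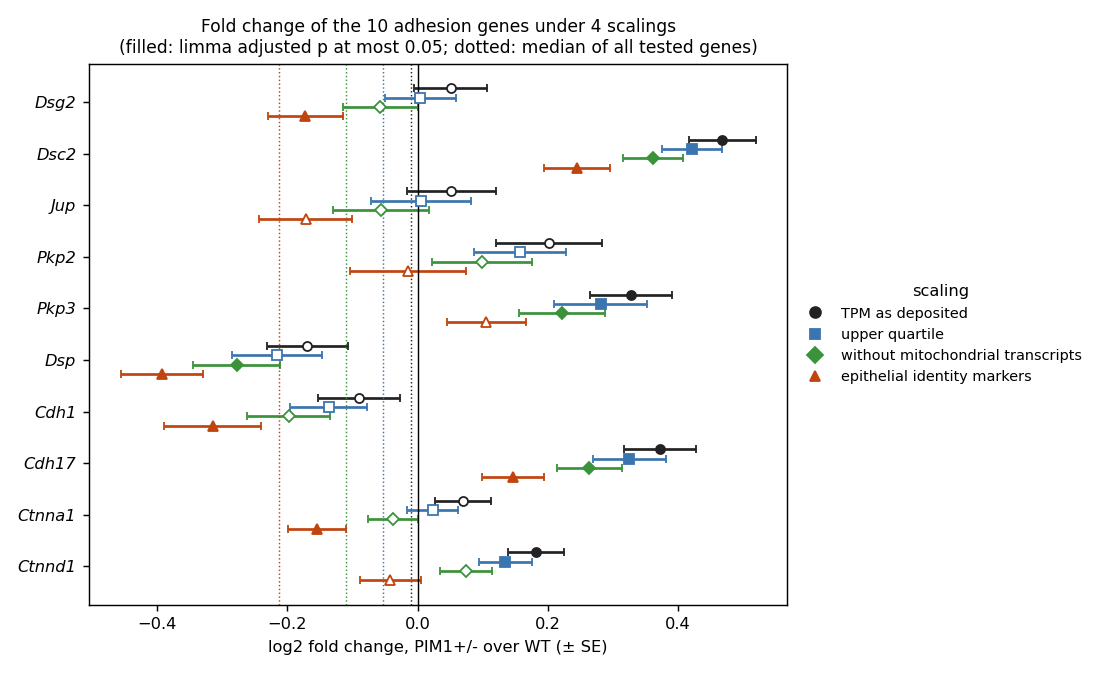
Log2 fold change ± SE (horizontal axis) of the 10 adhesion genes under 4 scalings of the libraries, with filled markers for limma adjusted p of at most 0.05 and dotted lines at the median of all tested genes under the same scaling. The 10 genes shift left together from the deposited TPM to the scaling on epithelial markers, and Dsc2 and Cdh17 are the genes called higher under all 4.

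Beside these results stand the markers that moved with genotype. A score over 17 non-epithelial markers had a correlation of 0.88 with genotype across the 8 libraries. The most abundant tested T and NK cell markers were Ccl5 (7.19 ± 3.02 and 32.4 ± 16.2 TPM) and Gzma (2.20 ± 0.729 and 11.4 ± 4.34 TPM). Those of the myeloid and mast cell list were Mcpt1 (0.537 ± 0.345 and 5.68 ± 1.62 TPM) and C1qa (0.563 ± 0.342 and 4.81 ± 2.63 TPM). The other 2 tested genes of that list overlapped between groups and were not called, and 6 of its 10 genes were too low to be tested. The B and plasma cell transcripts Igkc (6.09 ± 3.35 and 6.72 ± 2.31 TPM) and Igha (2.37 ± 1.02 and 2.61 ± 0.417 TPM) overlapped between groups. So did the endothelial markers Vwf (2.37 ± 0.902 and 1.61 ± 0.593 TPM) and Egfl7 (1.25 ± 0.318 and 1.22 ± 0.0668 TPM), and the stratified epithelium keratin gene Krt15 (2.72 ± 0.974 and 2.37 ± 1.05 TPM). Fibroblast markers summed to at most 0.63 TPM in WT and 2.17 TPM in PIM1+/- libraries. Of the posterior Hox genes, Hoxb13 went from 118 ± 14.7 to 50.3 ± 15.9 TPM (-1.27 ± 0.24, adjusted p = 0.00746) and Hoxa13 from 23.3 ± 4.01 to 13.8 ± 3.58 TPM (-0.74 ± 0.19, adjusted p = 0.0277). With the non-epithelial score as a covariate, limma called 0 of the 10 genes, with 4 at an unadjusted p under 0.05, and 25 genes in all. Dsc2 then stood at 0.57 ± 0.11 (adjusted p = 0.102) and Cdh17 at 0.43 ± 0.12 (adjusted p = 0.239). Their SE without the score was 0.05 and 0.06. Because the score follows genotype, this fit cannot separate the score from genotype.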

How the data were processed

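The data were RNA-seq of mouse colon epithelium, extracted with TRIzol per the labels' protocols. The authors deposited TPM per gene in one table, made with RSEM according to the series' design text. HISAT2, StringTie, edgeR and GRCm38.p6 appear in the submitters' processing notes without roles. Annotation release, strand setting and read totals are not stated. Because TPM is a share, abundant transcripts that change move every other value. All per-sample columns were used (0 were left out).

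Log2(TPM + 1) entered limma 3.58.1 (R 4.3.3, empirical Bayes, trend, two-sided). Genes needed 1 TPM or more in 4 of 8 libraries, p-values were adjusted by Benjamini-Hochberg, and 0.05 was the threshold. The test was checked on simulated data. Ratios were tested by exact permutation. The 10 genes and all lists were chosen with earlier results of these data known. The text names the 10 genes, Pim1, Ctnnb1, Epcam and up to 4 called genes of each partner list with the smallest p. It also names the 2 most abundant tested markers of each other cell type, and the 3 genes most alike in pattern. Neighbours of Dsc2 in its cluster, Plec, Gm28635, Gm16090 and Gm10129 were named outside that rule, after values were seen. Positions come from GENCODE M21 (GRCm38). Promoter windows come from RefSeq on GRCm38.p6 and were matched for 3 genes (Jup, Dsp and Ctnnd1), with a chromosome left out. Dsc2, Cdh17 and Pkp3, which rose, were not among them. The 16 nuclear copies of mitochondrial genes were found with BLAST+ 2.17.0 (90% identity over 80% of length). Alternatives were limma with no trend, 3 other scalings, no expression filter, a filter at 5 TPM on the mean, 0.1 as pseudocount, a threshold of 0.01, the replicate number as block, a covariate for non-epithelial markers, and leaving out each library. Figures used matplotlib 3.10.9.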

Additional observations from a re-analysis of the deposited data

Results flagged for a closer look

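Among 36 groups of 4 values (the TPM of the 10 genes and the 8 log2 ratios in each genotype), 2 held a library far from the other 3, where chance alone gives about 1 in 20. Ctnna1 in WT replicate 4, at 188.03 TPM, lay below the other WT libraries (200.03 to 202 TPM). Ctnnd1 in PIM1+/- replicate 3, at 131.74 TPM, lay above the other PIM1+/- libraries (127.08 to 127.53 TPM).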

How the results depend on the processing

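Of the 10 genes, 3 to 4 were called when single libraries were left out (3 to 4 higher and 0 to 1 lower), and of the partner genes 5 to 14 (16 with all libraries). Over all genes that number was 1388 to 2058, against 2229. Dsc2 and Cdh17 were called in 17 of 18 alternatives and Pkp3 in 16. Ctnnd1 was called in 9 of 18, and missed the threshold without the trend too (adjusted p = 0.0544). The non-epithelial score had a correlation of 0.88 with genotype, and a fit with both cannot separate them. With the score as covariate 0 members, 0 higher, 0 partner genes and 25 genes in all were called. Cdh1 then stood at 0.0085, Igha at -0.51 and Vwf at 0.072, and Igha and Vwf are themselves among the markers of that score. Scaling to epithelial markers gave 2 members higher and 4 lower and 4939 genes in all, with Dsg2 at -0.17, Jup at -0.17, Pkp2 at -0.015, Ctnna1 at -0.15, Ctnnd1 at -0.042, Ctnnb1 at -0.087, Epcam at -0.16, Perp at -0.039, Krt19 at -0.020 and Igha at -0.018. Epcam and Krt19 are themselves among the markers that set this scaling. Rescaling without mitochondrial transcripts gave 1 member lower, and turned Dsg2 to -0.057, Jup to -0.056, Ctnna1 to -0.038 and Epcam to -0.043. The cause of these changes was not tested. Without a filter 1439 genes and 7 partner genes were called, and at an adjusted p of 0.01 836 and 3. Leaving out single libraries moved Egfl7 between -0.11 and 0.048, Igha between -0.0030 and 0.33, Igkc between -0.17 and 0.50 and Krt15 between -0.36 and 0.019. The log2 ratios kept their direction without each library and moved by less than the SD between replicates, with Pkp2 to Pkp3 between -0.19 and -0.036 and Jup to Ctnnb1 between -0.11 and -0.030.

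Same-numbered libraries did not deviate together from their genotype means (correlations -0.14, 0.03, -0.03 and -0.07 for numbers 1 to 4). Whether they share more than a number is not labelled, and correlations over so few libraries cannot decide it. With the replicate number as a block 1449 genes, 3 members and 6 partner genes were called, and Ctnnd1 lost its call (adjusted p = 0.0740).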
